A study of Homo sapiens with 8 samples.

Results

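The casein kinase 1 genes (CSNK1A1, CSNK1D, CSNK1E, CSNK1G1, CSNK1G2 and CSNK1G3) and the microtubule affinity-regulating kinase genes (MARK1, MARK2, MARK3 and MARK4) were followed through an Ago2-RIP-Chip experiment in B-cell lymphoma cells. Their probes were found through the RefSeq accession that the array gives for each probe, which led to 19 of the 41000 probes, 13 for CSNK1 and 6 for MARK genes. All 10 genes had at least 1 probe. CSNK1G2 and MARK2 were singled out because earlier results of these data showed a high miR-155/EV ratio for them, so that their ratios are described here and not tested.

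Ago2 is the protein that holds a mature microRNA and, through it, the messenger RNAs that the microRNA pairs with. Ago2-RIP-Chip pulls Ago2 down with an antibody and measures the RNA that comes with it on a microarray, next to the total RNA of the same cells. The cells were ST486, an established Burkitt lymphoma cell line, transduced with the retroviral vector MXW-PGK-IRES-GFP, either empty (EV-ST486) or carrying miR-155 (miR-155-ST486), and sorted for GFP. Both groups thus share the vector backbone, the GFP marker and the sort. Total (T) and Ago2-immunoprecipitated (IP) RNA of both gave 4 RNA samples, 1 per condition, and every sample was labelled in either dye, Cy3 or Cy5, so that IP and T of the same cells met on 4 two-colour arrays with 8 channels. Since there was 1 RNA sample per condition, the vectors could not be compared by a test, and the error given here is that between the labellings, which is technical. The arrays of EV-ST486 and of miR-155-ST486 lay on different slides, so slide and vector cannot be told apart.

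The CK1 kinases are serine/threonine kinases that are active without a switch and recognise substrates that often carry a phosphate already. CK1 alpha primes beta-catenin for its destruction in the Wnt pathway, CK1 delta and CK1 epsilon phosphorylate the PER proteins of the circadian clock, and the lipid-anchored CK1 gamma kinases phosphorylate the Wnt co-receptor LRP6 at the membrane. The MARK kinases, relatives of AMP-activated kinase switched on by LKB1, detach proteins such as tau from microtubules and set up cell polarity. miR-155 comes from the transcript MIR155HG, is induced in activated B cells and has low levels in Burkitt lymphoma. The mature strands are shown because the 5p strand is the usual guide, whose seed (bases 2 to 8, in capitals) pairs with targets. Both were taken from RefSeq (GRCh38.p14), at chr21:25573983-25574006 and chr21:25574022-25574043 on the plus strand, both parts of the miR-155 hairpin.
hsa-miR-155-5p: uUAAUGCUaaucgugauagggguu
hsa-miR-155-3p: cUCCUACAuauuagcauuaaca
A transcript site that pairs with the whole 5p seed reads AGCAUUA. Such sites in the kinase transcripts were not analysed here.

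The labels were checked first. The MIR155HG probe A_32_P108156 had normalized signals of 11.4 and 19.2 in total RNA of EV-ST486 (Cy3 and Cy5) and was not well above background in either. In total RNA of miR-155-ST486 it gave 121 and 107 and was detected in both labellings, at least 1.4-fold higher, the bound being set by the lowest signal detected on each array. Whether the probe lies in the cloned segment was not tested. Of the 10 B-cell markers, 9 had a named probe and 7 of these were detected in all 8 channels, while PAX5 was detected in none and CD22 in 7. No T-cell marker (CD3D, CD3E, CD3G, CD2) was detected in any channel, nor were LYZ, CSF1R and EPCAM. The myeloid marker CD14 was detected in 5 channels, with total signals of 35.5 in EV-ST486 against 73.6 in miR-155-ST486, and HBB in 2, and their part in the kinase results was not tested. The channels detected between 14094 and 22161 of the 41000 probes, and no spot outside the controls was saturated.

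A probe was kept when it was well above background in at least 4 of the 8 channels and its labellings lay within 2-fold in each RNA sample, as for 15529 probes in all. This left 14 of the 19 kinase probes, 10 for CSNK1 and 4 for MARK genes, and 8 of the 10 genes. CSNK1G1 and MARK1 had no kept probe. Of the 5 probes lost, both MARK1 probes were detected in 0 of 8 channels, with signals of 9.8 to 21.5 for A_23_P424 and 11.5 to 14.7 for A_24_P179585. MARK1 was thus not well above background in either fraction or vector, and no ratio is given for it.

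**Figure D1:**
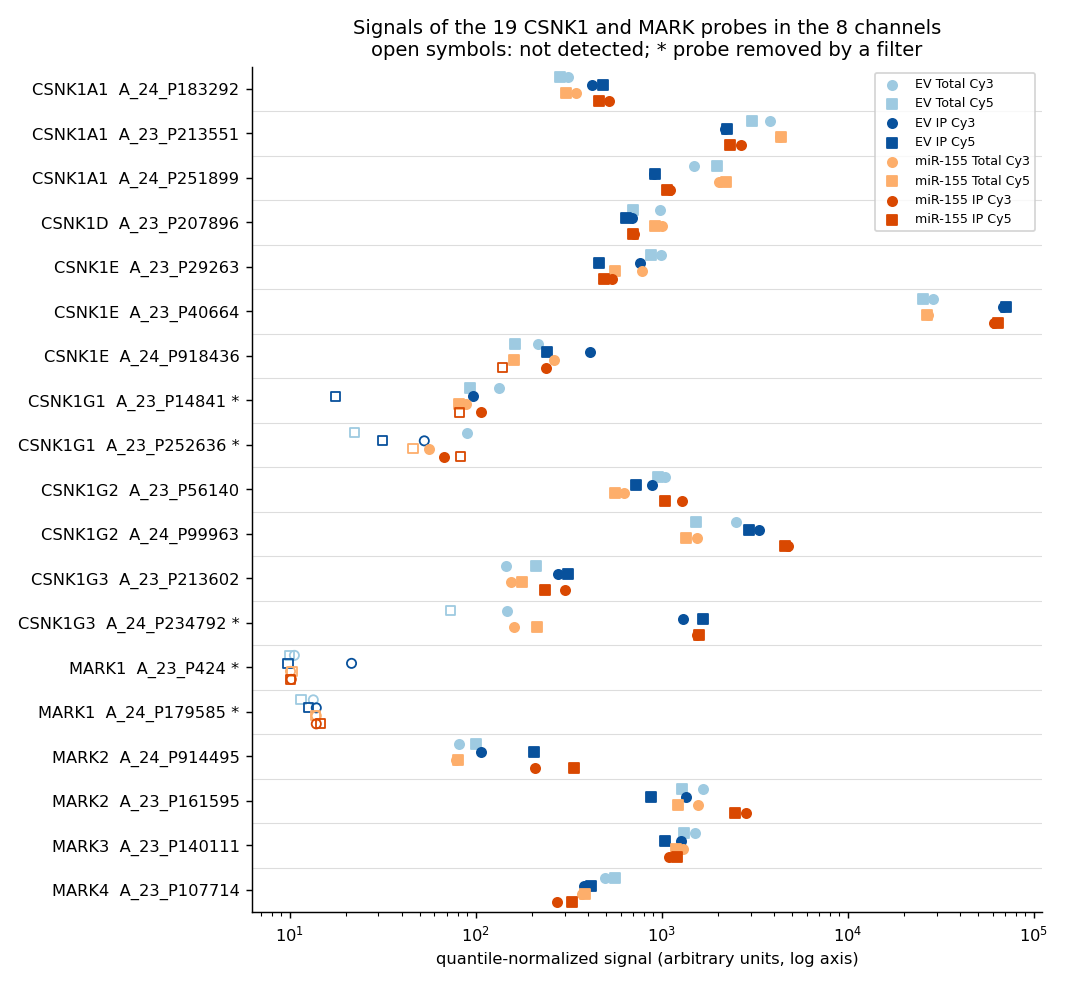
Normalized signal (log axis, arbitrary units) of each of the 19 probes in the 8 channels, by RNA sample (colour) and dye (circle Cy3, square Cy5), with open symbols where the probe was not detected. The IP signals of miR-155-ST486 lie above those of EV-ST486 for both CSNK1G2 and both MARK2 probes, while MARK1 stays at 9.8 to 21.5. Signals of different probes are not comparable as transcript levels.

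The highest miR-155/EV ratios among the kept kinase probes were those of CSNK1G2 and MARK2. The IP/T ratio is the IP signal over the T signal, and dividing this ratio in miR-155-ST486 by its EV-ST486 counterpart gives the miR-155/EV ratio. Of the 14 kept kinase probes 4 were at or above 2 in miR-155/EV, namely both CSNK1G2 probes and both MARK2 probes. Over all 15529 kept probes the share was 1.15%, but the genes had been chosen by this ratio and nothing is read from the difference. The other 10 kept probes had miR-155/EV ratios from 0.524 to 1.23 with a median of 0.963, next to a median of 0.983 over all kept probes. The probes just inside the threshold were CSNK1G2 A_24_P99963 at 2.02 and MARK2 A_24_P914495 at 2.03, and the nearest kept probe outside it was CSNK1E A_23_P29263 at 1.23. No kept kinase probe had a ratio of 0.5 or lower, next to 0.477% of all kept probes.

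CSNK1G2 encodes CK1 gamma 2, one of the membrane-anchored CK1 kinases. Its probe A_23_P56140 (NM_001319) gave signals of 1035 and 955 in EV total RNA (Cy3, then Cy5), 883 and 730 in EV IP, 626 and 559.5 in miR-155 total, and 1288 and 1042 in miR-155 IP. The miR-155-ST486 labellings were lower than both EV-ST486 labellings in total RNA and higher than both in IP RNA, without overlap. In EV-ST486 its IP/T was 0.807 (0.705 with total RNA in Cy3 and 0.925 with IP RNA in Cy3), compared with 1.96 (1.67 and 2.30) in miR-155-ST486. The miR-155/EV ratio was thus 2.43 (2.36 and 2.49), and 0.502% of all kept probes lay at or above it. In miR-155/EV this was the CSNK1G2 probe whose orientations lay closest together, but not in IP/T of miR-155-ST486.

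The second CSNK1G2 probe, A_24_P99963, is listed under the same accession. Its signals were 2495 and 1527 in EV total, 3335 and 2934 in EV IP, 1553 and 1353 in miR-155 total, and 4789.9 and 4597 in miR-155 IP. The IP labellings again did not overlap between the vectors, but the total labellings did. IP/T went from 1.60 (1.18 and 2.19) in EV-ST486 to 3.24 (2.96 and 3.54) in miR-155-ST486. The miR-155/EV ratio of 2.02 (2.52 and 1.62) was above 2 in one orientation alone. The probes differed by 1.99-fold in EV-ST486 IP/T but by 1.2-fold in miR-155/EV, and over the 2150 genes with at least 2 kept probes the median spread was 1.4 and 1.2. RefSeq names a pseudogene of CSNK1G2 and an antisense gene, CSNK1G2-AS1, and what these add to the signal was not tested.

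MARK2 encodes a MARK kinase that acts in cell polarity and microtubule stability. Its probe A_23_P161595 (NM_017490) gave 1663 and 1289 in EV total, 1344 and 875 in EV IP, 1558 and 1229 in miR-155 total, and 2818 and 2484 in miR-155 IP. Both IP labellings of miR-155-ST486 were above both of EV-ST486, and the total labellings overlapped. IP/T went from 0.741 (0.526 and 1.04) in EV-ST486 to 1.91 (1.59 and 2.29) in miR-155-ST486. The miR-155/EV ratio of 2.58 (3.03 and 2.20) was the highest among the kept kinase probes, and 0.373% of all kept probes lay at or above it.

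The other MARK2 probe, A_24_P914495 (NM_004954), was dim. It gave 80.9 and 99.7 in EV total, 107 and 205 in EV IP, 78.5 and 80.2 in miR-155 total, and 208 and 338 in miR-155 IP. All 8 channels were detected, and the IP labellings of the vectors were separated only by the step from 205 to 208, while both total labellings were slightly lower in miR-155-ST486. IP/T went from 1.65 (2.54 and 1.07) in EV-ST486 to 3.34 (4.30 and 2.60) in miR-155-ST486, a miR-155/EV ratio of 2.03 (1.7 and 2.42). The accessions of the MARK2 probes differ and stand for different transcripts. RefSeq names 21 pseudogenes of MARK2, more than of any other gene here, with 3 each for CSNK1A1 and MARK3. What these copies add to the MARK2 signals was not tested.

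Across the family, 2 of the 14 kept probes were at or above 2 for miR-155/EV in both dye orientations, CSNK1G2 A_23_P56140 and MARK2 A_23_P161595 (0.67% of all kept probes). A different pair, CSNK1G2 A_24_P99963 and MARK2 A_24_P914495, reached 2 both in miR-155/EV and in IP/T of the miR-155-ST486 cells (0.438% of all kept probes). The bright MARK2 probe and CSNK1G2 A_23_P56140 missed that second threshold at 1.91 and 1.96. No probe met all of these thresholds, and nothing is read from these shares, since the miR-155/EV ratio had chosen both genes. Over all kept probes the orientations correlated with r = 0.316 for miR-155/EV, as a description across probes, against 0.816 and 0.908 for IP/T in EV-ST486 and miR-155-ST486. The orientations of 5 of the 14 kept kinase probes lay on opposite sides of 1 for miR-155/EV, and no share over all kept probes is given. None of the 5 was a probe of CSNK1G2 or MARK2, but this ratio had chosen those genes, so nothing is read from that.

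**Figure D2:**
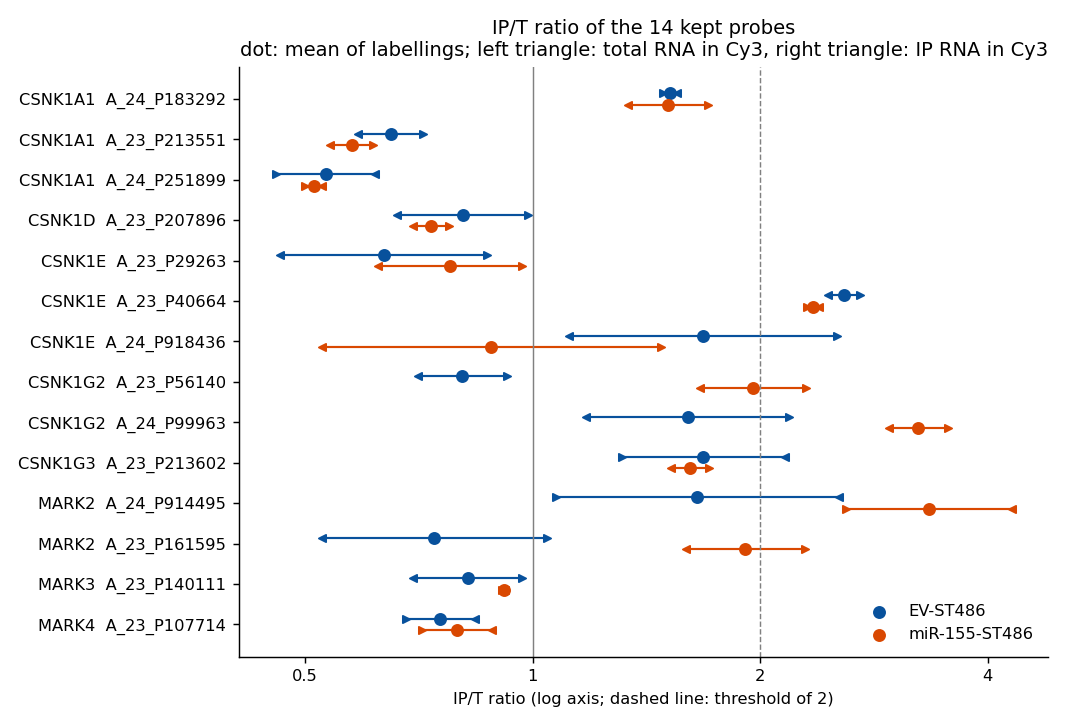
IP/T ratio (log axis) of the 14 kept probes in EV-ST486 (blue) and miR-155-ST486 (orange), with the mean of the labellings as a dot, triangles for the orientations and a dashed line at 2. The EV-ST486 and miR-155-ST486 ranges do not overlap for either CSNK1G2 probe or either MARK2 probe, whose genes the miR-155/EV ratio had chosen. No share over all kept probes is given, and nothing is read from the separation. The mean goes from 0.807 to 1.96 for CSNK1G2 A_23_P56140, while the ranges of MARK2 A_24_P914495 end at 2.54 and begin at 2.60. The ranges of CSNK1E A_23_P40664, lower in miR-155-ST486, do not overlap either, and those of the other 9 probes overlap.

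CSNK1G2 and MARK2 reached similar miR-155/EV ratios. Among their probes CSNK1G2 A_23_P56140 alone had a total RNA ratio of miR-155-ST486 to EV-ST486 in the lowest 2.5% of all kept probes. For MARK2 A_23_P161595, total RNA was 0.945-fold (0.937 and 0.953) in miR-155-ST486 relative to EV-ST486 and IP RNA was 2.44-fold (2.84 and 2.10). For MARK2 A_24_P914495 these values were 0.884 (0.971 and 0.805) and 1.79 (1.65 and 1.95). Both IP values were among the highest 2.5% of all kept probes, which began at 1.77, and both total values were well inside the distribution. For CSNK1G2 A_23_P56140, total RNA was 0.595-fold (0.604 and 0.586), among the lowest 2.5%, which ended at 0.629, and IP RNA was 1.44-fold (1.43 and 1.46). CSNK1G2 A_24_P99963 had 0.743 (0.622 and 0.886) for total and 1.5 (1.57 and 1.44) for IP RNA. Its total value was above 0.629, with overlapping total labellings, and both CSNK1G2 IP values were below 1.77, so that these lay outside the tails. Both CSNK1G2 ratios thus held a lower total signal as well as a higher IP signal, as did both MARK2 ratios with a smaller step in total RNA. The total signal of A_23_P56140 was the only one of the 14 that was at least 1.5-fold lower (4.12% of all kept probes). The ratio that chose CSNK1G2 and MARK2 holds the total and IP differences, so these values are descriptions. In bulk RNA, fewer transcripts per cell and fewer cells with the transcript cannot be told apart.

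Counting the fractions separately, 7 of the 14 kept probes had both IP labellings of miR-155-ST486 above both of EV-ST486 (26.9% of all kept probes) and 3 had both below (25.6%). In total RNA 2 had both above (25.8%) and 5 both below (22.6%). The 7 probes higher in IP were both CSNK1G2 probes, both MARK2 probes, a pair of CSNK1A1 probes and the CSNK1D probe. CSNK1G2 and MARK2 had been chosen by a ratio that holds the IP difference, so nothing is read from the counts of probes higher in IP. An IP signal at least 1.5-fold higher was reached by 3 of the 14 (6.42% of all kept probes), both MARK2 probes and CSNK1G2 A_24_P99963 at 1.5. Of the 10 kept probes of the other members, 0 reached it. An IP signal at least 1.5-fold lower was reached by 1, CSNK1E A_24_P918436 (6.16%). No kinase probe had a total signal at least 1.5-fold higher (5.37%).

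**Figure D3:**
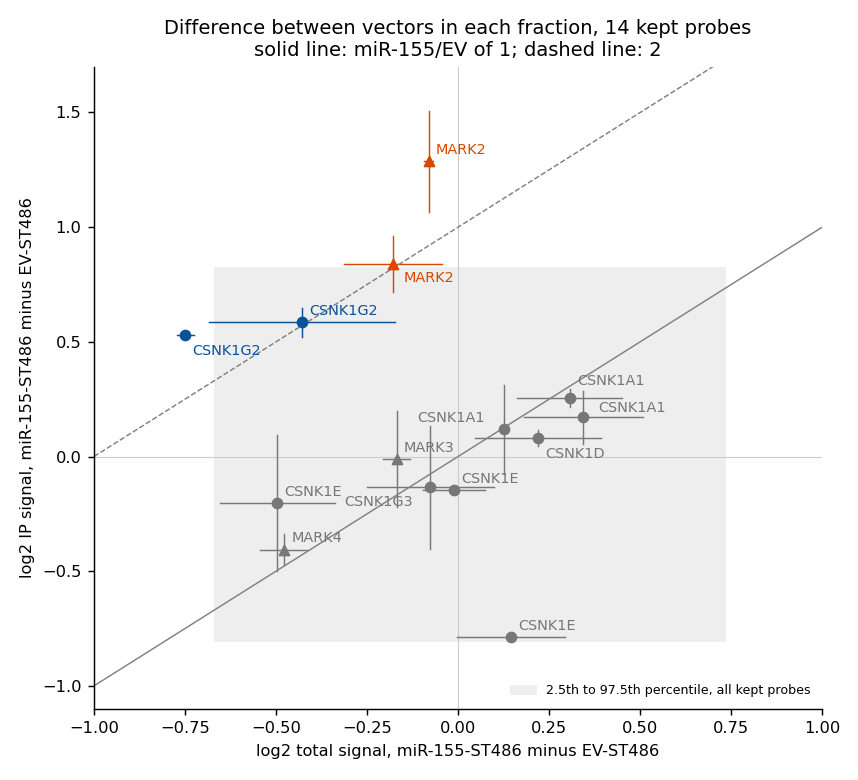
Log2 difference between miR-155-ST486 and EV-ST486 in total RNA (x axis) and IP RNA (y axis) for the 14 kept probes, circles for CSNK1 and triangles for MARK, with lines from one dye orientation to the other and the middle 95% of all kept probes in grey. The MARK2 probes lie above the grey box, CSNK1G2 A_23_P56140 lies to its left, and all other points stay inside it.

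Of the other CK1 gamma genes, CSNK1G3 alone had a kept probe, and its miR-155/EV ratio was near 1. CSNK1G3 encodes CK1 gamma 3, and its kept probe A_23_P213602 (NM_004384) gave 145 and 210.4 in EV total, 276 and 313 in EV IP, 156 and 177 in miR-155 total, and 303 and 237 in miR-155 IP. The labellings of the vectors overlapped in both fractions. IP/T was 1.68 (2.16 and 1.31) for EV-ST486 against 1.62 (1.52 and 1.71) for miR-155-ST486, and miR-155/EV was 0.96 (0.706 and 1.31). The other CSNK1G3 probe, A_24_P234792, had the highest IP/T ratios of the 19 probes from the processed signals, 14.1 (11.3 and 17.7) for EV-ST486 and 8.52 (9.95 and 7.29) for miR-155-ST486. It was lost because its EV total labellings, 148 and 73.4, were 2.02-fold apart, with the Cy5 one not detected. Its IP signals of 1301, 1667, 1552 and 1592 were detected in all 4 channels, but the 17.7 and the mean of 14.1 divide by a signal not above background. Under the settings with normexp its IP/T in EV-ST486 was 1.15 to 3.41.

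CSNK1G1 encodes CK1 gamma 1 and was near the limit of detection. Probe A_23_P14841 (NM_022048) was detected in 6 channels, with 133 and 92.7 in EV total, 96.8 and 17.7 in EV IP, 88.7 and 81.2 in miR-155 total, and 106 and 81.9 in miR-155 IP. Its EV IP labellings were 5.47-fold apart and only the Cy3 one was detected. The miR-155/EV ratio of 2.95 averaged orientations of 6.95 and 1.25, and the 6.95 rested on 2 channels that were not detected, EV IP and miR-155 IP in Cy5. Probe A_23_P252636 was detected in 3 channels and in neither EV IP channel. For it the IP signal in miR-155-ST486 was at least 1.04-fold that in EV-ST486, with measured means of 74.7 and 40.8. Total RNA of CSNK1G1 was measured by A_23_P14841, which was detected in all 4 total channels and lay at 0.764-fold (0.666 and 0.876) in miR-155-ST486 without overlap. In the IP fraction A_23_P14841 was detected in Cy3 but not in Cy5 in either vector. Its IP/T and miR-155/EV thus rested on detected channels only with IP RNA in Cy3. In that orientation IP/T was 1.04 for EV-ST486 and 1.31 for miR-155-ST486, and miR-155/EV was 1.25.

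CSNK1A1, the CK1 alpha gene of the Wnt pathway, had 3 kept probes. A_23_P213551 (NM_001892) gave 3823 and 3064 in EV total, 2196 and 2246 in EV IP, 4332 and 4359 in miR-155 total, and 2678 and 2335 in miR-155 IP. Both fractions were higher in miR-155-ST486 in both labellings, by 1.27-fold in total and 1.13-fold in IP RNA. IP/T was 0.649 for EV-ST486 against 0.576 for miR-155-ST486, and miR-155/EV was 0.887 (0.918 and 0.857). A_24_P251899 (NM_001892) behaved likewise, with IP/T of 0.532 (EV-ST486) and 0.513 (miR-155-ST486) and miR-155/EV of 0.965 (0.85 and 1.1). A_24_P183292, listed under NM_001025105, had IP/T of 1.52 and 1.51 and miR-155/EV of 0.994 (0.862 and 1.15). The probes thus lay on both sides of 1 in IP/T, in the same order in EV-ST486 and miR-155-ST486, and within 1.12-fold of each other in miR-155/EV.

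CSNK1D and CSNK1E encode the clock kinases CK1 delta and CK1 epsilon. CSNK1D A_23_P207896 (NM_001893) gave 974 and 697 in EV total, 688 and 645 in EV IP, 1005 and 915 in miR-155 total, and 710.3 and 698 in miR-155 IP. IP/T was 0.809 and 0.734, and the miR-155/EV ratio of 0.908 (1.05 and 0.786) had orientations on opposite sides of 1. For CSNK1E, 3 probes were listed under NM_152221. A_23_P40664 was the brightest of the 19, with 28685 and 25236 in EV total, 68356 and 70487 in EV IP, 26841 and 26539 in miR-155 total, and 61142 and 64225 in miR-155 IP. Every labelling gave IP/T above 2, with 2.58 (2.46 and 2.71) for EV-ST486 and 2.35 (2.39 and 2.30) for miR-155-ST486, and miR-155/EV was 0.91 (0.974 and 0.851).

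The other CSNK1E probes went different ways. A_23_P29263 had IP/T of 0.635 and 0.778 and miR-155/EV of 1.23 (1.35 and 1.11), with total RNA 0.709-fold (0.791 and 0.636) in miR-155-ST486. A_24_P918436 gave 216 and 162 in EV total, 409 and 241 in EV IP, 264 and 161.5 in miR-155 total, and 239 and 139 in miR-155 IP, the last not detected. Its IP labellings were lower in miR-155-ST486 in both dyes, and its miR-155/EV ratio was 0.524 (0.471 and 0.584), the lowest of the 14. The 3 probes were 2.34-fold apart in miR-155/EV, and 1.4% of the 2150 genes had a spread as wide. From the processed signals this spread rested on A_24_P918436. Without it, when detection in all 8 channels was asked for, the other probes were 1.35-fold apart. With normexp and quantile normalization, where it had 0.916, the 3 probes were 1.37-fold apart. With normexp, high local backgrounds replaced and loess, they were 1.6-fold apart, and A_24_P918436 at 0.856 lay between the others. RefSeq also lists a read-through gene, TPTEP2-CSNK1E, and which transcripts each probe reads was not tested.

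MARK3 and MARK4, the paralogues of MARK2 that were measured, gave ratios near 1. MARK3 A_23_P140111 (NM_002376) had 1506 and 1309.8 in EV total, 1269.7 and 1046 in EV IP, 1306 and 1195 in miR-155 total, and 1089 and 1199.8 in miR-155 IP. The IP labellings overlapped, and miR-155/EV was 1.12 (1.32 and 0.94). MARK4 A_23_P107714 (NM_031417) had 493 and 562 in EV total, 382 and 414 in EV IP, 370.3 and 386 in miR-155 total, and 275 and 327 in miR-155 IP. Both its fractions were lower in miR-155-ST486 without overlap, total RNA at 0.718 (0.751 and 0.686) and IP RNA at 0.755 (0.79 and 0.721), so that the miR-155/EV ratio was 1.05 (1.05 and 1.05). Among kept probes, the lower MARK2 probe was 1.82-fold above the highest MARK paralogue probe in miR-155/EV, and the lower CSNK1G2 probe 1.65-fold above the highest CSNK1 paralogue probe, while the removed CSNK1G1 probe A_23_P14841 had 2.95. These gaps are descriptions, since the ratio chose the genes.

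For IP/T on its own, 1 of the 14 kept probes was at or above 2 in EV-ST486, next to 12.1% of all kept probes, and 3 of 14 in miR-155-ST486, next to 12.2%. The EV-ST486 probe was CSNK1E A_23_P40664, joined in miR-155-ST486 by CSNK1G2 A_24_P99963 and MARK2 A_24_P914495. The miR-155/EV ratio, which holds the IP/T of miR-155-ST486, had chosen the genes of these added probes, so nothing is read from the step. None of the 14 was at or below 0.5 in either, next to 13.3% of all kept probes. The median IP/T of the 14 was 0.814 for EV-ST486 and 1.18 for miR-155-ST486, against 0.9 and 0.882 over all kept probes. Without CSNK1G2 and MARK2 the medians were 0.814 and 0.837.

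The miR-155/EV ratios of CSNK1G2 and MARK2 were lower when the arrays were processed with normexp. As the median over each gene's probes they were 2.21 for CSNK1G2 and 2.29 for MARK2 from the processed signals. With normexp on the median spot and median local background signals in place of these, followed by quantile normalization, they were 1.27 and 1.29. None of the kinase probes was then at or above 2. With the high local backgrounds, which 33 channel values had, replaced first, the gene medians were 1.58 and 1.72. Under that setting 1 probe, MARK2 A_23_P161595 at 2.51, stayed at or above 2. These settings changed the signal, the background model and an offset together, and which of them lowers the ratios was not tested. CSNK1G2 A_23_P56140, below 1 in EV-ST486 IP/T from the processed signals, was at 1.01 to 1.07 under the settings with normexp. With normexp and loess CSNK1G3 A_24_P234792 had a miR-155/EV ratio of 1.56, above both CSNK1G2 probes. With normexp and quantile normalization MARK2 A_24_P914495 had 1.05 and MARK3 1.06.

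**Figure D4:**
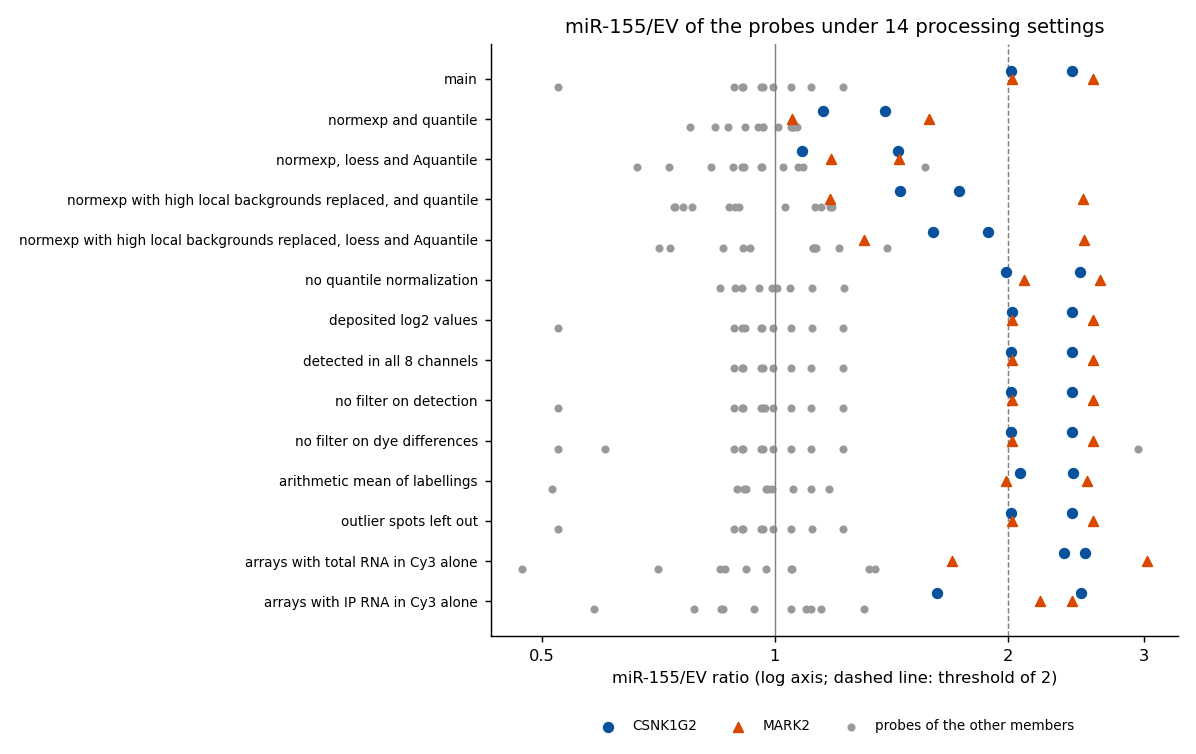
miR-155/EV ratio (log axis) of the kept probes of CSNK1G2 (blue), MARK2 (orange) and the other kinases (grey) under 14 processing settings, 1 per line, with a dashed line at 2. Under the settings with normexp 3 or 4 of the CSNK1G2 and MARK2 probes fall below 2, and under the others at least 3 of the 4 stay at or above it.

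Genes that act with these kinases were examined through 6 lists, and 0 of their 78 kept probes reached 2 in miR-155/EV, next to 1.15% of all kept probes, a share at which a count of 0 is no result about the lists. Gene values in the lists are medians over a gene's kept probes. The relatives of the kinases (VRK, tau tubulin kinase and AMPK-related genes) had 9 of 18 genes with kept probes. They ran from SIK1, a salt-inducible kinase, at 0.682 (0.9 and 0.516) to VRK3, a vaccinia-related kinase, at 1.53 (1.73 and 1.34). The SIK1 probes differed, A_23_P132121 at 0.55 with an EV total signal of only 25.7 and A_24_P237231 at 0.845. The median over the 11 kept probes of the relatives was 0.859. The Wnt list had 7 of 13 genes, from beta-catenin (CTNNB1) at 0.886 (0.835 and 0.94) to APC2, a relative of the scaffold APC, at 1.75 (1.64 and 1.87), with a median of 1.28 over 9 probes. CTNNB1, the protein that CK1 alpha marks for destruction, had IP/T of 3.15 for EV-ST486 against 2.79 for miR-155-ST486. The other Wnt genes had medians over their kept probes of 1.67 or lower, and the highest single probe, of DVL3, was at 1.79 in miR-155-ST486.

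The clock genes had 8 of 12 genes, from PER1 at 0.855 (1.0 and 0.731) to PER2 at 1.15 (0.928 and 1.42), both of them substrates of CK1 delta and CK1 epsilon, with a median of 1.02 over 11 probes. CK1 anchors and regulators had 3 of 10 genes, from DDX3X, an RNA helicase that stimulates CK1 epsilon, at 0.618 (0.684 and 0.559) to FAM83D, which brings CK1 alpha to the spindle, at 1.19 (1.21 and 1.16). FAM83D had IP/T ratios of 17.7 and 21.1, so that high enrichment was shared by EV-ST486 and miR-155-ST486. The LKB1 complex and MARK upstream kinases had 9 of 10 genes, from CAB39 (MO25, a partner of LKB1) at 0.811 (0.685 and 0.961) to PRKCZ, an atypical protein kinase C, at 1.14 (1.1 and 1.18), with a median of 1.04 over 14 probes.

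MARK substrates and polarity partners had 14 of 20 genes with 29 kept probes and a median of 0.998. The highest was the 14-3-3 gene YWHAH at 1.21 (1.21 and 1.21). The lowest was PARD6G, a PAR6 polarity protein, at 0.493 (0.552 and 0.44), with IP/T at 0.619 for EV-ST486 and 0.305 for miR-155-ST486. It was the 1 probe of the 78 at or below 0.5, next to 0.477% of all kept probes.

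**Figure D5:**
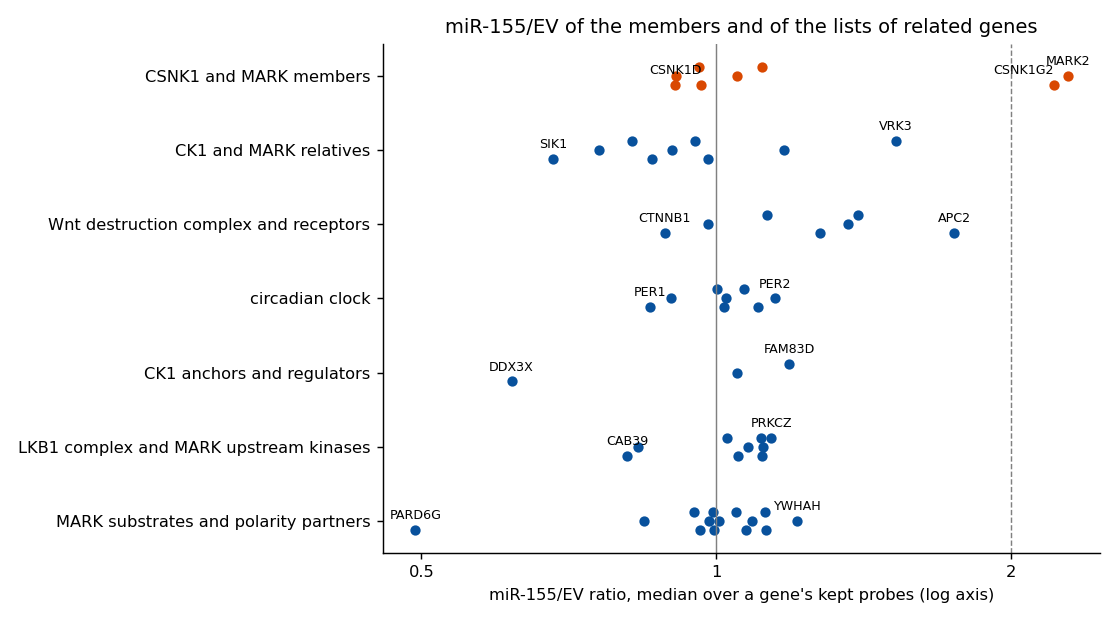
miR-155/EV ratio (log axis, median over a gene's kept probes) of the 8 kinase genes with a kept probe (orange) and of the genes of the 6 lists (blue), 1 dot per gene, with the highest and lowest named. CSNK1G2 at 2.21 and MARK2 at 2.29 are the dots past the dashed line at 2, and the list genes run from PARD6G at 0.493 to APC2 at 1.75.

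Genes with a like pattern were named by the Euclidean distance of their centred log2 signals over the 8 channels, which share 4 arrays. Closest to the mean CSNK1G2 profile were DYRK3, a dual-specificity kinase, at 0.472, SMAD5, a signal carrier of BMP receptors, at 0.495, and UQCC2, a mitochondrial complex III assembly factor, at 0.509. The CSNK1G2 probes themselves lay at 0.668 and the median of all kept probes at 1.86. Closest to MARK2 were CLUAP1 at 0.361, TBC1D14 at 0.429 and SOD1, the cytosolic superoxide dismutase, at 0.522, with the MARK2 probes at 1.00 and the median at 1.94. The miR-155/EV ratios were 1.54 for DYRK3, 1.85 for SMAD5, 1.47 for UQCC2, 2.30 for CLUAP1, 2.78 for TBC1D14 and 1.76 for SOD1. The distances use the same 8 channels as these ratios, so nothing is read from ratios above 1.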

How the data were processed

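The intensity values per spot were extracted by the authors with Agilent Feature Extraction 10.5.1.1 and, going by the file headers as deposited, had the background subtracted and the dyes balanced within each array. A table of log2 values was deposited as well, made by the authors with GeneSpring by quantile normalization and filters. Each array is deposited under both channels with identical content.

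Here, control spots were left out, spots of a probe averaged, signals below 1 set to 1, log2 values quantile-normalized over the 8 channels, and probes filtered on detection (at least 4 channels) and labelling difference (2-fold). Log2 values of the labellings were averaged. Of the deposited log2 values, 99.94% lay within 0.05 of these. Symbols came from RefSeq accessions (GRCh38.p14), which matched 23958 of 41000 probes; no coordinates of the probes are used. Quantile normalization gives all channels the same distribution, so that ratios are relative. Signal over background and the number of arrays limit the precision.

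Named were all members, list genes with the highest or lowest miR-155/EV ratio or one of at least 2 or at most 0.5, and the 3 genes closest in pattern. The members and lists were chosen with earlier results of these data known. Alternatives were normexp (offset 50), loess, no quantile normalization, the deposited values, other filters and thresholds, and single dye orientations. Software was limma 3.58.1 (R 4.3.3) for the alternatives and Python 3.11.15 otherwise, with pandas 2.3.3, numpy 2.4.6 and, for plots, matplotlib 3.10.9. Scripts were tested on simulated data.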

Additional observations from a re-analysis of the deposited data

Results flagged for a closer look

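CSNK1G2 A_23_P56140 was above an IP/T ratio of 1 in both labellings of miR-155-ST486 and below 1 in both of EV-ST486, with a miR-155/EV ratio of 2.43. The difference was not tested. Under the 4 settings with normexp the probe was above 1 in EV-ST486 as well, at 1.01 to 1.07, and its miR-155/EV ratio was 1.08 to 1.6.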

How the results depend on the processing

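With normexp and quantile normalization the miR-155/EV ratio was 1.27 for CSNK1G2 and 1.29 for MARK2, and with normexp and loess 1.25 and 1.31. With high local backgrounds replaced it was 1.58 and 1.72 (quantile) and 1.74 and 1.81 (loess). Without quantile normalization MARK2 had 2.35, and with arithmetic means of the labellings 2.24. A single dye orientation gave 2.01 to 2.44 for CSNK1G2 and 2.27 to 2.31 for MARK2. The 4 probes with miR-155/EV of at least 2 became 0 with normexp, 1 with replaced backgrounds, 0 at a threshold of 3, and 3 to 3 in single orientations. The single EV-ST486 probe with IP/T of at least 2 became 2 with replaced backgrounds or without the dye filter, 3 to 3 in single orientations, 6 at a threshold of 1.5 and 0 at 3. The 3 such probes in miR-155-ST486 became 1 with normexp, 3 to 5 in single orientations and 7 at a threshold of 1.5. The causes were not tested. The other alternatives left these values within the spread of the labellings or the counts within 1.5-fold. No spot outside the controls was saturated. The MARK1 probes were detected in 0 channels. The CSNK1G1 probes were detected in 6 and 3 channels, and both also had labellings more than 2-fold apart.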
